A study of Mus musculus with 2 samples.

Results

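The expression of Notch ligands, receptors and targets was followed across the cell types of the mouse ciliary region. The members are 10 of the 33456 genes counted, taken by symbol from a list chosen with earlier results of these data known. They are the ligands Dll1, Dll4, Jag1 and Jag2, the receptors Notch1, Notch2 and Notch3, and the target genes Hes1, Hes5 and Hey1. Tissue came from wild-type C57BL/6 mice aged 35 postnatal days, whose ciliary epithelium was dissected and digested with collagenase; 2 droplet libraries of single cells were made, and neither a treatment nor a cell sort is named. Each library was a single pool of tissue. Library 1 came from 3 sets of eyes, and the labels give both 3 and 4 sets for library 2. Every value below therefore has n = 2 pools. P-values measure only the spread of the summed class profiles that is left after fitting, shared over all classes fitted. The main fit takes out the common shift between the pools, and spread between single animals is not measured.

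Notch receptors are single-pass membrane proteins that are activated by ligands on a neighbouring cell. Ligand pull on the receptor exposes it to cleavage by ADAM proteases and then by gamma-secretase, and the freed intracellular part joins RBPJ and Mastermind on DNA and turns on Hes and Hey genes, which encode transcriptional repressors. In vessels the pathway is known for the choice between tip and stalk cells, for arterial identity and for the coating of vessels by mural cells, and in the eye it is known for holding retinal progenitors undifferentiated and for Muller glia. The ciliary body folds 2 epithelial sheets, an inner non-pigmented and an outer pigmented layer facing each other apex to apex, over a vascular core.

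The libraries held 4764 and 6220 barcodes with 22510387 and 30683405 unique molecular identifiers (UMIs, each a counted RNA molecule). After filtering, 3865 cells (median 4128 UMIs) and 5466 cells (median 2968 UMIs) remained, and 11 barcodes occurred in both libraries. Cells fell into 27 clusters, which marker genes placed in 22 classes; each class is like its named type, and that qualifier is dropped below. Genes of the Notch list took no part in the clustering. The non-pigmented epithelium held 144 and 146 cells in libraries 1 and 2, with 11 of its 12 markers counted, the pigmented ciliary and iris epithelium held 134 and 213 (10 of 12), the endothelium 145 and 96 (12 of 12), and the pericyte or vascular mural class 35 and 23 (9 of 9). A further class, with 9 of 9 Muller glia markers counted, had Aqp4, Col9a1 and Cp of the non-pigmented list among its leading 10 genes and only Aqp4 and Slc1a3 of the Muller list, so it is left without a cell type name and called the Aqp4-Slc1a3 class. Muller markers summed to 35937 and 29374 CPM in it, and in the non-pigmented class to 20892 and 28091 CPM, and the T or NK class also held mast cell genes. The mural class had 7 of 8 smooth muscle markers counted too. Those 8 markers summed to 19127 and 9699 CPM in it, against 15139 and 13742 CPM for the 9 mural markers. The dissection was not pure: rods alone made up 9.81% and 32.2% of the cells. Levels are counts per 1000000 UMIs of a class (CPM) with exact Poisson 95% intervals, which cover counting error only.

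Each Notch gene had its own distribution over the 21 classes with at least 20 cells in both libraries. In a fit over all classes (edgeR quasi-likelihood F test, with a call needing a p under 0.05 after Benjamini-Hochberg adjustment and a log2 difference of 1 or more either way), 49 of 210 pairs of a Notch gene and a class, or 23.3%, were called higher than the mean of the other classes, where 14.9% of all pairs of a tested gene and a class were. A further 10 pairs were called lower, a count that stands without the share over all tested pairs and is read no further. All 10 genes passed the filter on low counts, but Dll4 and Jag2 passed it through the endothelium alone, so their endothelial calls, included in these counts, support nothing and are given without a p. In the plot of levels by class the ligand Dll4 and the receptor Notch3 each have 1 class far above the rest, whereas Notch2 and Hes1 are found in every class.

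**Figure D1:**
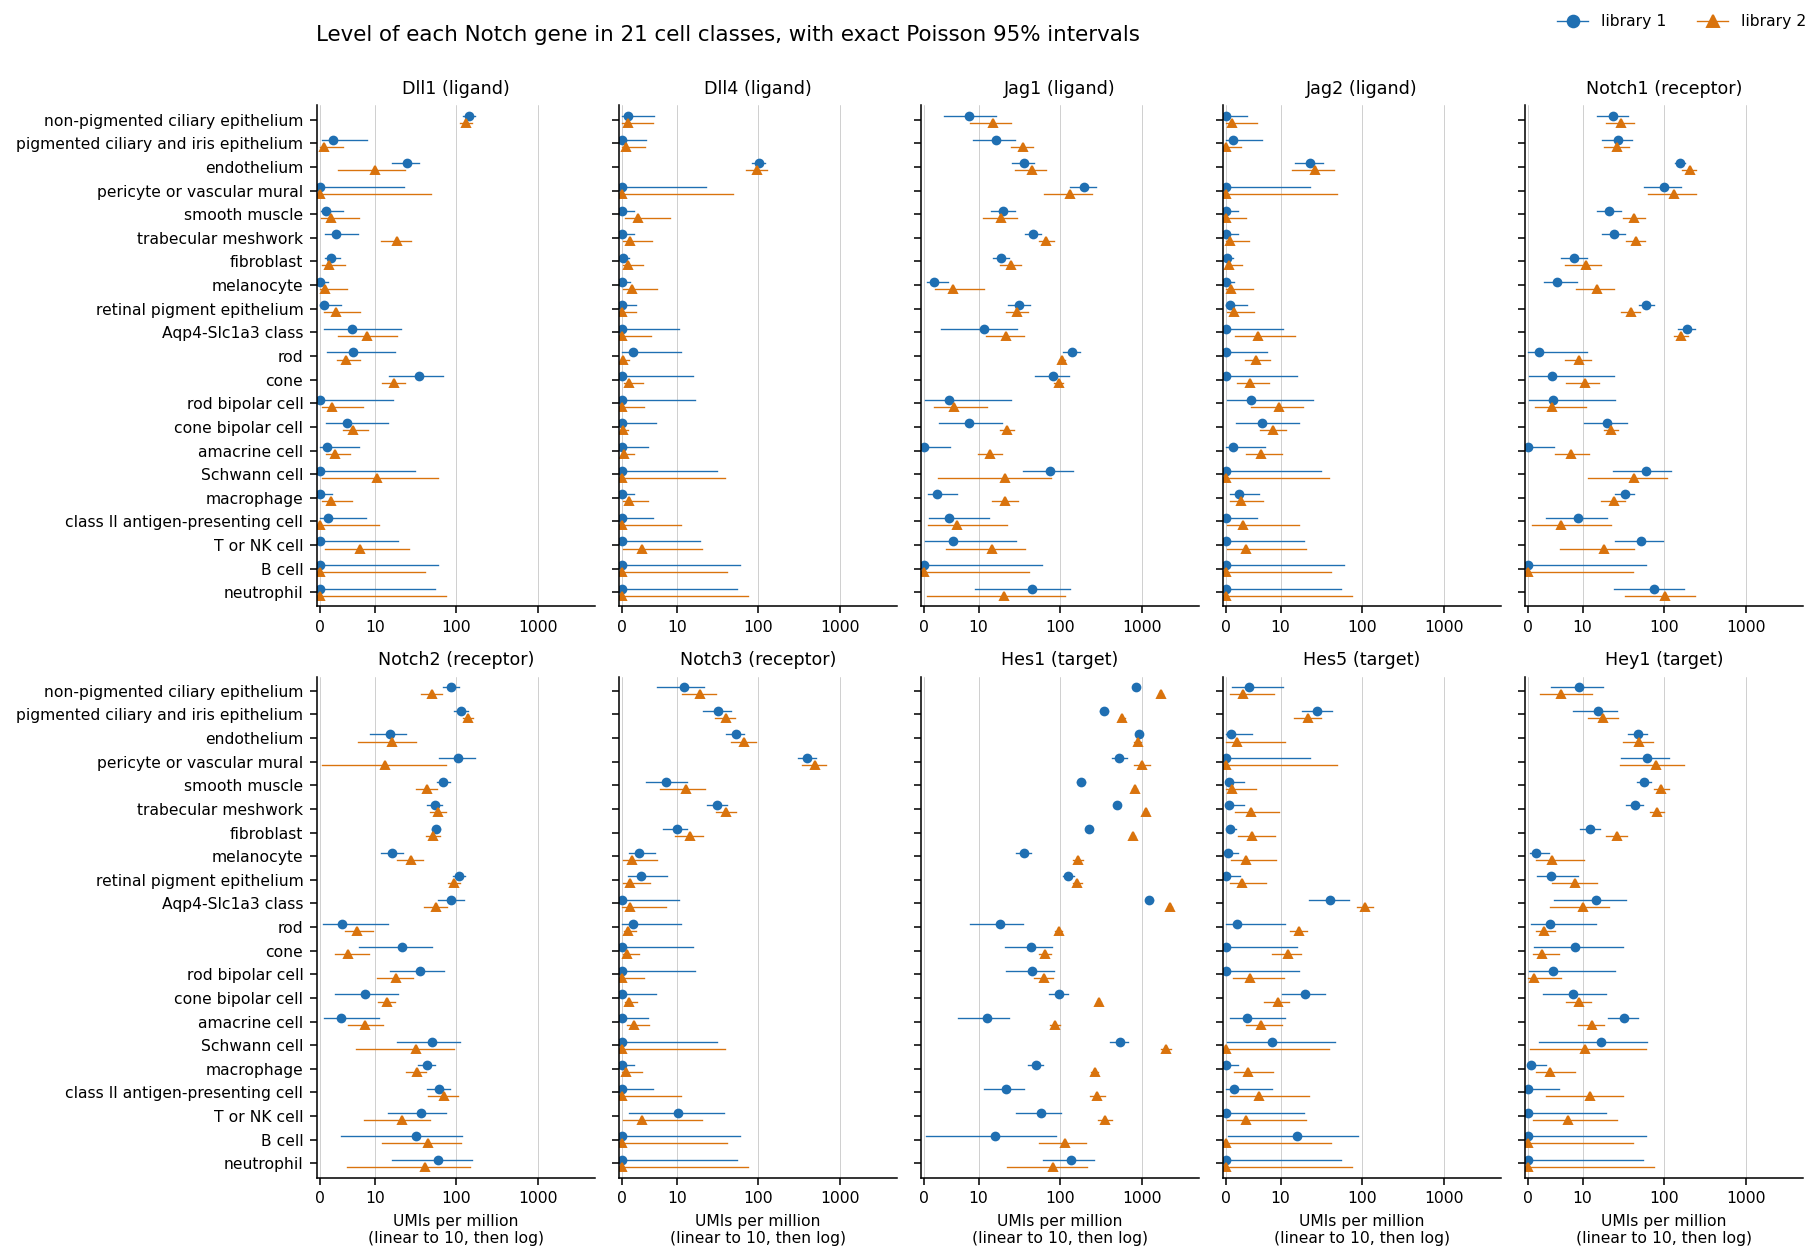
Level of each of the 10 Notch genes (x axis, CPM, linear up to 10 and logarithmic above) in 21 classes (y axis). Circles are library 1, triangles library 2 and lines exact Poisson 95% intervals. Dll1 stands highest in the non-pigmented epithelium at 143 and 132 CPM, Dll4 in the endothelium at 102 and 96.8, and Notch3 in the mural class at 392 and 489.

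Among the ligands, Dll1 marked the non-pigmented ciliary epithelium. Dll1, a Delta-type ligand used widely in neural and somite development, was measured there at 143 CPM (119.9 to 169, 138 UMIs) in library 1 and 132 CPM (110.4 to 157, 131 UMIs) in library 2. Both libraries lay far above every other class, of which cones came next with 34.7 and 17.2 CPM. The fitted difference from the mean of the other classes was 6.22 ± 0.34 on the log2 scale (SE, adjusted p = 2.26e-16). Smaller Dll1 differences were called in the endothelium (3.13 ± 0.59), cones (3.03 ± 0.59) and the trabecular meshwork (2.26 ± 0.62), the filter tissue of aqueous outflow. Trabecular Dll1 was uneven, with 3.00 CPM in library 1 and 18.7 in library 2.

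Dll1 UMIs were found in 41.7% of non-pigmented cells of library 1 (60 of 144, exact binomial 95% interval 33.5 to 50.2) and in 28.8% of library 2 (42 of 146, 21.6 to 36.8). With each cell thinned to 1000 UMIs, leaving out 15 and 20 shallower cells, these shares were 17.8% and 9.52%. In T or NK cells, which should lack Dll1, 0 of 64 and 2 of 74 cells had a UMI at median depths of 2231 and 3341.5 UMIs, against 3302.5 and 2758 in the non-pigmented cells. The thinned shares in T or NK cells were 0% and 1.35%. Dll1 lies on chromosome 17 (15367354 to 15376872, minus strand, GRCm38), where the annotated gene A930024N18Rik overlaps it on the other strand. Dll4 (Gm14207), Notch1 (0610009E02Rik and Gm13568), Notch3 (Gm17276) and Hes5 (Gm20421) have such overlaps too, and whether counting used the strand is not given in the sources used here.

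Dll4 was an endothelial ligand. Dll4, the Delta ligand of tip and arterial cells, stood at 102 CPM (84.5 to 122, 120 UMIs) and 96.8 CPM (71.4 to 128, 48 UMIs) in the endothelium, and no other class exceeded 3.63 CPM in either library. In 8 of the 21 classes no Dll4 UMI was seen at all. Dll4 UMIs were found in 40.0% and 29.2% of endothelial cells, and in 7.30% and 10.8% after thinning to 1000 UMIs, against 0 of 64 and 1 of 74 T or NK cells.

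Jag1 was called in 5 classes. Jag1, a Jagged-type ligand known in vessel walls and the lens, was highest in the mural class, with 193 CPM (131 to 274, 31 UMIs) and 132 CPM (63.4 to 243, 10 UMIs). Rods followed with 138 and 105 CPM and cones with 82.4 and 95.7, and the ranges of mural cells and rods overlapped between libraries. Jag1 was called higher than the mean of the other classes in mural cells (3.27 ± 0.49, adjusted p = 4.97e-06), rods (2.73 ± 0.31), cones (2.23 ± 0.36), trabecular meshwork (1.85 ± 0.35) and retinal pigment epithelium (1.26 ± 0.41).

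Jag2 was sparse, with 42 and 142 UMIs among all kept cells. Jag2, a Jagged ligand described in endothelium and several epithelia, was highest in the endothelium at 22.9 CPM (27 UMIs) and 26.2 CPM (13 UMIs). Both values lay above those of every other class, the next being cone bipolar cells with 6.64 and 8.56 CPM. Beside the endothelium, calls against the mean of the other classes were made in rod bipolar cells (2.84 ± 0.82), cone bipolar cells (2.65 ± 0.63) and amacrine cells (1.91 ± 0.71). In the mural class no Jag2 UMI was seen.

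Of the receptors, Notch1 was highest in the endothelium and the Aqp4-Slc1a3 class. Notch1, the receptor of arterial and tip-stalk choice, stood at 157 and 204 CPM in the endothelium and at 189 and 161 CPM in the Aqp4-Slc1a3 class, so neither class can be placed above the other. The mural class followed with 99.6 CPM (16 UMIs) and 132 CPM (10 UMIs). Notch1 was called higher than the mean of the other classes in endothelium (3.24 ± 0.26), the Aqp4-Slc1a3 class (3.11 ± 0.28), mural cells (2.38 ± 0.50), retinal pigment epithelium (1.79 ± 0.32) and macrophages (1.08 ± 0.37). In the ciliary layers its level was low, between 23.8 and 29.2 CPM in both layers and libraries.

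Notch2 was found in every class and was highest in the pigmented sheets. Notch2, known for ciliary body morphogenesis and for mural and bile duct cells, was measured at 114 CPM (92.7 to 139, 97 UMIs) and 140.1 CPM (121 to 162, 187 UMIs) in the pigmented ciliary and iris epithelium. The retinal pigment epithelium had 108 and 94.6 CPM, below both pigmented ciliary values. The Aqp4-Slc1a3 class had 87.1 and 56.4 CPM, the non-pigmented epithelium 85.8 and 50.4, and the mural class 106 and 13.2. The pigmented ciliary and iris epithelium and the retinal pigment epithelium differed from the mean of the others by similar amounts (2.05 ± 0.21 and 2.01 ± 0.21). Class II antigen-presenting cells (1.58 ± 0.30) and non-pigmented epithelium (1.08 ± 0.25) were called higher too. Notch2 was called lower in rods (-2.66 ± 0.37), amacrine cells (-2.59 ± 0.36), cones (-2.45 ± 0.43), cone bipolar cells (-1.72 ± 0.32) and endothelium (-1.32 ± 0.37). UMIs of Notch2 were found in 39.6% and 45.5% of pigmented cells and in 11.4% and 16.9% after thinning to 1000 UMIs, and in 9.38% and 8.11% of T or NK cells (3.23% and 2.70% after thinning).

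Notch3 was the mural receptor. Notch3, the receptor of smooth muscle and pericytes whose human counterpart is mutated in CADASIL, stood at 392 CPM (301 to 502, 63 UMIs) and 489 CPM (344 to 674, 37 UMIs) in the mural class. The lower mural value was several times the endothelial values of 52.6 and 66.5 CPM, which came next. UMIs of Notch3 were found in 28 of 35 and 16 of 23 mural cells (80.0% and 69.6%), and in 15 of 33 and 5 of 20 after thinning to 1000 UMIs. In T or NK cells 2 of 64 and 1 of 74 had a UMI. Notch3 was called higher than the mean of the others in mural cells (7.69 ± 0.32), endothelium (4.83 ± 0.35), trabecular meshwork (4.20 ± 0.35), pigmented (4.20 ± 0.37) and non-pigmented epithelium (2.98 ± 0.48), fibroblasts (2.79 ± 0.41) and smooth muscle-like stroma (2.25 ± 0.51). Most endothelial and non-pigmented Notch3 UMIs lay in 1 sub-cluster of each class, described with the sub-clusters.

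Among the targets, Hes1 was the most widely found. Hes1, a repressor that maintains progenitors and glia and is also turned on by other signals, was highest in the Aqp4-Slc1a3 class with 1219 and 2213 CPM. The non-pigmented epithelium had 853 and 1721 CPM, below the endothelium (921 CPM) in library 1 and Schwann cells (1971 CPM) in library 2, and the values of these classes overlapped. Library 2 had the higher Hes1 level in 19 of 21 classes, and the summed level of 10 immediate early genes was higher in library 2 in 21 of 21. That sum was 9269 and 25823 CPM in the Aqp4-Slc1a3 class, and 2950 and 5436 CPM in the non-pigmented epithelium; its part in the Hes1 levels was not tested. Hes1 was called higher than the mean of the others in 8 classes, led by the Aqp4-Slc1a3 class (2.91 ± 0.27), non-pigmented epithelium (2.69 ± 0.27) and endothelium (2.26 ± 0.29), and lower in 5 classes, led by amacrine cells (-2.75 ± 0.46).

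Hes5 was highest in the Aqp4-Slc1a3 class and the pigmented ciliary and iris epithelium. Hes5, a repressor of neural and glial progenitors, stood at 40.6 CPM (14 UMIs) and 109 CPM (75 UMIs) in the Aqp4-Slc1a3 class, and at 28.3 CPM (24 UMIs) and 21.7 CPM (29 UMIs) in the pigmented ciliary and iris epithelium. The former values lay above the pigmented values in both libraries. Calls against the mean of the others were made in the Aqp4-Slc1a3 class (4.62 ± 0.48, adjusted p = 2.04e-09), pigmented epithelium (3.28 ± 0.55, adjusted p = 1.48e-05), cone bipolar cells (1.75 ± 0.65) and rods (1.71 ± 0.61), the last with 1 UMI in library 1 and 76 in library 2. Hes5 UMIs lay in few cells, 9 of 134 and 14 of 213 pigmented cells (6.72% and 6.57%), and after thinning to 1000 UMIs in 1.63% and 0.565%, near the level of single UMIs. In T or NK cells 0 of 64 and 1 of 74 had a Hes5 UMI.

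Hey1 belonged to stroma and vessels. Hey1, a repressor of the vascular Notch response, stood at 57.0 and 92.3 CPM in smooth muscle-like stroma, 62.2 and 79.3 CPM in mural cells (10 and 6 UMIs), 43.7 and 82.3 CPM in trabecular meshwork and 47.6 and 48.4 CPM in endothelium. The first 3 classes overlapped between libraries and cannot be ordered. Calls against the mean of the others were made in these 4 classes (3.62 ± 0.33, 3.33 ± 0.69, 3.42 ± 0.33 and 2.95 ± 0.41), in fibroblasts (1.79 ± 0.43), in pigmented epithelium (1.44 ± 0.55) and in amacrine cells (1.41 ± 0.51).

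The upstream sequences of the genes were searched for the sites through which the pathway is known to act, to show which carry their letters close to the start. RefSeq promoters (GRCm38.p6) were found for 8 of the 10 genes, and the 250 bases before each start were read on both strands. The targets Hes1 and Hey1 had no entry and were not searched, so Hes5 was the only target read. The RBPJ letters GTGGGAA occurred in 1 of 8 genes, Hes5, which held 2 matches at 226 and 83 bases before its start; 5.42% of 32851 promoters hold a match and 0.161% hold at least 2. The letters CACGNG, bound by Hes and Hey repressors, occurred in 5 of 8 genes (Dll1, Dll4, Jag1, Notch2 and Notch3) and in 23.5% of all promoters. The N-box letters CACNAG occurred in 4 of 8 (Dll4, Notch1, Notch2 and Notch3) and in 36.7% of all. Each match is a description of letters and no measure of binding. Hes5 is shown with its RBPJ letters in capitals, because it is the target called between the ciliary layers, at chr4:154960673-154960922, plus strand, and the 3 ligands that hold CACGNG are shown with the match in capitals, Dll1 (the upstream of 2 starts) at chr17:15376933-15377182, minus strand, Dll4 at chr2:119325534-119325783, plus strand, and Jag1 at chr2:137116521-137116770, minus strand.
Hes5: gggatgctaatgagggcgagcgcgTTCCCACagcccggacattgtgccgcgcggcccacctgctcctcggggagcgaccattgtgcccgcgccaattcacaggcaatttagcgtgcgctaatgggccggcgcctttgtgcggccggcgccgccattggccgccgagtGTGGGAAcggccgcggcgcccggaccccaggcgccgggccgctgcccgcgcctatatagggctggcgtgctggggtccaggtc
Dll1: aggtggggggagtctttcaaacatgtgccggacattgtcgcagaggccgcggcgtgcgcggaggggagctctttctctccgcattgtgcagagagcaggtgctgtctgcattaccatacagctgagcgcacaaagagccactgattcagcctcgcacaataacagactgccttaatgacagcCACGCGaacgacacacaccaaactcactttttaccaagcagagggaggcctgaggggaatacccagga
Dll4: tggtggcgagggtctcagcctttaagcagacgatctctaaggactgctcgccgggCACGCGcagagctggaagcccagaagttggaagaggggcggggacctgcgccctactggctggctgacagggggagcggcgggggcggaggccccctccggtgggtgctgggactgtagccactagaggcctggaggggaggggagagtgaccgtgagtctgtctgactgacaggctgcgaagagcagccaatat
Jag1: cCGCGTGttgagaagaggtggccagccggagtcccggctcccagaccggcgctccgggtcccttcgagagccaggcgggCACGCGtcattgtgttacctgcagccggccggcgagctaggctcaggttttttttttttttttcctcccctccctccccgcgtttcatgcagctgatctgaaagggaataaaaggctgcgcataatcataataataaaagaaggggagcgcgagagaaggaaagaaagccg

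Between the ciliary layers, the ligand Dll1 was on the non-pigmented side and the target Hes5 on the pigmented side. Of the 10 genes, 1 was called higher and 1 lower in non-pigmented than in pigmented epithelium, where 6.57% of 6905 tested genes were called in either direction; the median log2 fold change of the 10 was -0.45 (-0.995 over the 8 with more than 3 UMIs), against -0.03 over all tested genes. Dll1 gave 138 and 131 UMIs in the non-pigmented layer and 2 and 1 UMIs in the pigmented layer (2.36 and 0.749 CPM). The ratio of the pooled levels was 99.9 (33.8 to 488, counting interval), and the adjusted p was 4.04e-08 (edgeR). Every non-pigmented value exceeded both pigmented values by far.

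Hes5 was measured at 4.14 CPM (4 UMIs) and 3.02 CPM (3 UMIs) in the non-pigmented layer and at 28.3 and 21.7 CPM in the pigmented layer. The log2 fold change was -2.80 ± 0.81 (adjusted p = 0.0265, edgeR). The layers did not overlap, but the call was lost with DESeq2 (-2.89, adjusted p = 0.0878), without library as a block (-2.74, adjusted p = 0.119) and without cells above 3 times the median UMIs of their class (-3.17, adjusted p = 0.0611).

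Hes1 lay the other way from Hes5. Its level was 853 and 1721 CPM in the non-pigmented layer and 342 and 574 CPM in the pigmented layer, with no overlap. The log2 fold change of 1.46 ± 0.48 missed the call (adjusted p = 0.0612, edgeR), and it passed under 6 of the 12 alternative settings that gave a test.

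No receptor was called between the layers. Notch2 was measured at 85.8 and 50.4 CPM in the non-pigmented layer against 114 and 140.1 CPM in the pigmented layer, without overlap (-0.92 ± 0.33, adjusted p = 0.0975). Notch3 was at 12.4 and 19.1 CPM against 31.8 and 39.7 CPM, also without overlap (-1.16 ± 0.39, adjusted p = 0.0741). Notch1 did not separate the layers, with 23.8 and 29.2 CPM against 27.1 and 26.2 CPM (0.02 ± 0.45). Jag1 (-1.12 ± 0.57, adjusted p = 0.326) and Hey1 (-1.07 ± 0.60, adjusted p = 0.392) missed the call too, with values shown in the plot of the ciliary layers. Dll4 and Jag2 gave at most 2 UMIs per layer in both libraries together, and no fold is given for them.

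**Figure D2:**
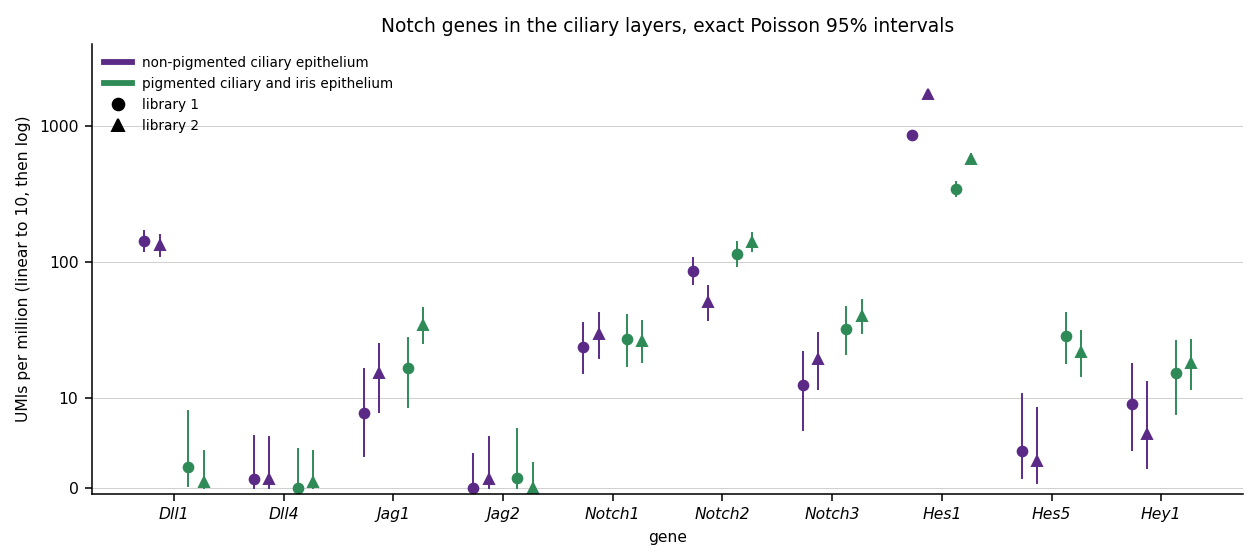
Levels of the 10 Notch genes (y axis, CPM, linear up to 10 and logarithmic above) in the non-pigmented (purple) and pigmented (green) epithelium. Circles are library 1, triangles library 2 and bars exact Poisson 95% intervals. Dll1 and Hes1 lie higher in the non-pigmented layer in both libraries, and Notch2, Notch3 and Hes5 lie higher in the pigmented layer.

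Cells of unusual depth or mixed markers touched the receptor and target values of both layers. Non-pigmented sub-cluster 7, with pigment genes (Pmel, Dct, Mlana) leading and a median of 14250 UMIs, held 47 of the 290 non-pigmented cells and 45.0% of their UMIs. It gave 21 of the 31 Notch3 UMIs of that layer, 12 of 15 Hey1 UMIs and 5 of 7 Hes5 UMIs, but 67 of 269 Dll1 UMIs. Sub-cluster 5 (26 cells, 23.1% of the UMIs), led by the stromal genes Dcn, Mgp and Col1a1, gave 100 of the Dll1 UMIs, 28 of 52 Notch1 UMIs and 945 of 2533 Hes1 UMIs. Without sub-cluster 7 the non-pigmented class had Dll1 at 173 and 202 CPM, and Notch3 at 1.84 and 16.9 CPM. Over the whole non-pigmented class the summed level of the 12 pigmented markers was 7914 and 7199 CPM, against 29485 and 27701 CPM in the pigmented class.

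In the pigmented class, 2 sub-clusters counted smooth muscle markers and differed in Notch gene levels. Pigmented sub-cluster 4, led by the smooth muscle genes Acta2, Tagln and Myh11, held 39 and 17 cells and no Jag1 or Hes5 UMI, and it gave 1 of the 80 Notch3 UMIs, 33 of 1056 Hes1 UMIs and 28 of 284 Notch2 UMIs. It held 12.3% of the UMIs of the class. Pigmented sub-cluster 7 (14 and 22 cells, median 14205 UMIs), led by Myoc, Dcn and Mgp, held 26.7% of the UMIs, and gave 23.6% of the Hes1 UMIs, 53 of 284 Notch2, 16 of 80 Notch3 and 11 of 53 Hes5 UMIs. Pigmented sub-cluster 2, led by Flrt2, Fstl1 and Nrp1, held 24.1% of the UMIs, 28 of the 53 Hes5 UMIs, 33 of the 80 Notch3 UMIs and 104 of the 284 Notch2 UMIs, the last at 198 CPM. Sub-clusters were formed without the Notch genes, were not tested, and their counts cover both libraries.

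Counts of calls between the layers moved with the cells that entered the classes. The share of all tested genes called under each of these settings is not given here. The counts therefore do not show a change particular to the Notch genes. Without pigmented sub-clusters 4 and 7, which hold smooth muscle markers (53 and 39 cells), 1 of the 10 genes was called higher and 3 lower, with Notch2 at -1.09 (adjusted p = 0.0463) and Notch3 at -1.52 (adjusted p = 0.0186) added to Hes5. Without cells above the 95th percentile of UMIs, 2 were called higher (Dll1 and Hes1) and 3 lower (Notch2, Notch3 and Hes5). Without cells above 3 times the median UMIs of their class, a setting added with the data in view, 2 were called higher and 3 lower (Notch2, Notch3 and Hey1). With a mitochondrial limit of 15%, Notch2 was at -0.27 (adjusted p = 0.799) and Notch3 at -0.42 (adjusted p = 0.771).

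In the vessel wall, the Delta ligand lay in the endothelium and Jag1 and Notch3 in the mural cells. Of the 10 genes 1 was called higher and 3 lower in endothelium than in the mural class, where 5.73% of 6905 tested genes were called in either direction. The 1 called higher, Dll4, passed the count filter through the endothelium alone, so its call is counted here but supports nothing. The median log2 fold change was 0.73 over the 10 genes, 0.64 over 9 with those at 0 UMIs set to their lower bound, -1.17 over the 6 with UMIs in both classes, and 0.25 over all tested genes. Normalisation shifted the whole comparison: 228 genes were called higher and 168 lower with TMM, and 160 and 216 with RLE, where the overall median was 0.02. With DESeq2 the split was 95 and 232. The 3 calls of Notch genes lower in endothelium were also made with RLE, where the median of the 10 was 0.47.

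Dll4 gave 120 and 48 UMIs in the endothelium and 0 in the mural class of either library. A count of 3 UMIs would be 18.7 and 39.6 CPM in the mural libraries taken singly, against endothelial levels of 102 and 96.8 CPM. With 1 floor of 3 UMIs over both mural libraries together, Dll4 was at least 7.91-fold higher in endothelium. It is the gene counted as called higher, which DESeq2 did not call. Jag2 (40 UMIs against 0, at least 1.88-fold) and Dll1 (34 UMIs against 0, at least 1.60-fold, adjusted p = 0.190) were not called.

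Notch3 was the clearest difference toward mural cells. Its level was 392 and 489 CPM in the mural class and 52.6 and 66.5 CPM in the endothelium, and the log2 fold change was -2.72 ± 0.35 (adjusted p = 4.37e-06, edgeR). This was called under every alternative that gave a test. Jag1 stood at 193 and 132 CPM in the mural class and 35.7 and 44.4 CPM in the endothelium, without overlap (-1.98 ± 0.53, adjusted p = 0.0184). The Jag1 call was lost under 4 alternatives, among them the fit without library as a block (-1.94, adjusted p = 0.0792) and a mitochondrial limit of 15% (-1.31, adjusted p = 0.129).

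Notch2 was called lower in endothelium (-2.05 ± 0.57, adjusted p = 0.0244), but on 1 library. The mural class held 17 Notch2 UMIs (106 CPM) in library 1 and 1 UMI (13.2 CPM) in library 2, against 15.3 and 16.1 CPM in the endothelium. In library 2 alone the difference was 0.26 and in library 1 alone -2.66. Notch1 was at 157 and 204 CPM in endothelium against 99.6 and 132 CPM in mural cells, without overlap and not called (0.82 ± 0.46, adjusted p = 0.408). Hes1 (0.64 ± 0.50, adjusted p = 0.608) and Hey1 (-0.36 ± 0.58, adjusted p = 0.853) were not called either.

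**Figure D3:**
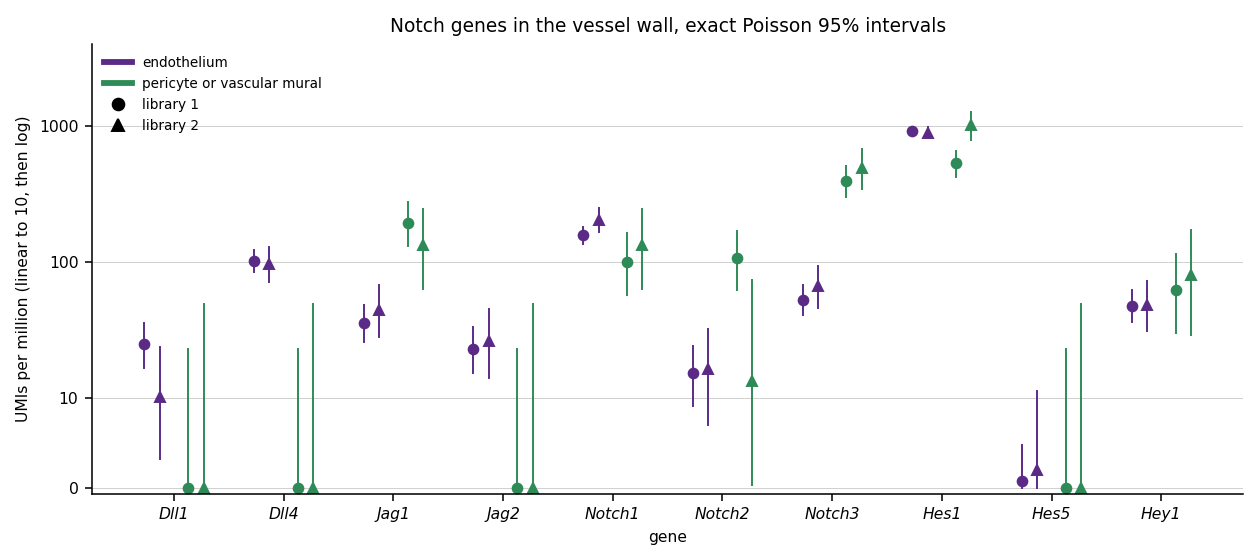
Levels of the 10 Notch genes (y axis, CPM, linear up to 10 and logarithmic above) in the endothelium (purple) and the pericyte or vascular mural class (green). Circles are library 1, triangles library 2 and bars exact Poisson 95% intervals. Dll4 is seen in endothelium and not in mural cells, Notch3 and Jag1 lie higher in mural cells in both libraries, and mural Notch2 is at 106 CPM in library 1 and 13.2 in library 2.

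Endothelial cells split into 5 sub-clusters, whose Notch gene levels are given as a description without a test. Sub-cluster 1 (21 and 29 cells), led by the barrier transporter genes Slco1c1 and Mfsd2a, had the highest Hey1 level at 148 CPM (31 UMIs) and the highest Jag2 level at 57.1 CPM (12 UMIs). Sub-cluster 2 (64 and 4 cells), with Plvap of fenestrated vessels among its leading genes, had Dll4 at 146 CPM (46 UMIs) and Hes1 at 1513 CPM. Sub-cluster 3 (29 and 21 cells), led by Ccl21a, Mmrn1 and Prox1 of lymphatic or Schlemm canal endothelium, with 6 of 6 such markers counted, had the highest Dll1 level at 58.2 CPM (20 of the 34 endothelial UMIs) and Hes1 at 329 CPM. Sub-cluster 4 (1 and 31 cells) carried rod genes and Dll4 at 223 CPM. Notch1 lay between 114 and 216 CPM in all 5.

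Endothelial Notch3 sat almost wholly in sub-cluster 5. That sub-cluster (30 and 11 cells) had a median of 14161 UMIs, and 7 of 9 mural and 5 of 8 fibroblast markers counted in it, with Rgs5 at 1909 CPM and Dcn at 2521 CPM. It gave 87 of the 95 endothelial Notch3 UMIs (91.6%) and 42.2% of all endothelial UMIs. Sub-clusters 2 and 3 had no Notch3 UMI, and the endothelium without sub-cluster 5 had 0 Notch3 UMIs among 115 cells of library 1 and 8 among 85 cells of library 2. With sub-cluster 5 left out, a choice made after seeing the data, Notch3 was no longer called higher in endothelium than in the mean of the other classes (2.13 ± 0.87, adjusted p = 0.0946), and the endothelium-mural difference grew to -5.41 (adjusted p = 1.35e-07). Dll4 kept a similar level in sub-cluster 5, 96.2 CPM (68 UMIs).

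**Figure D4:**
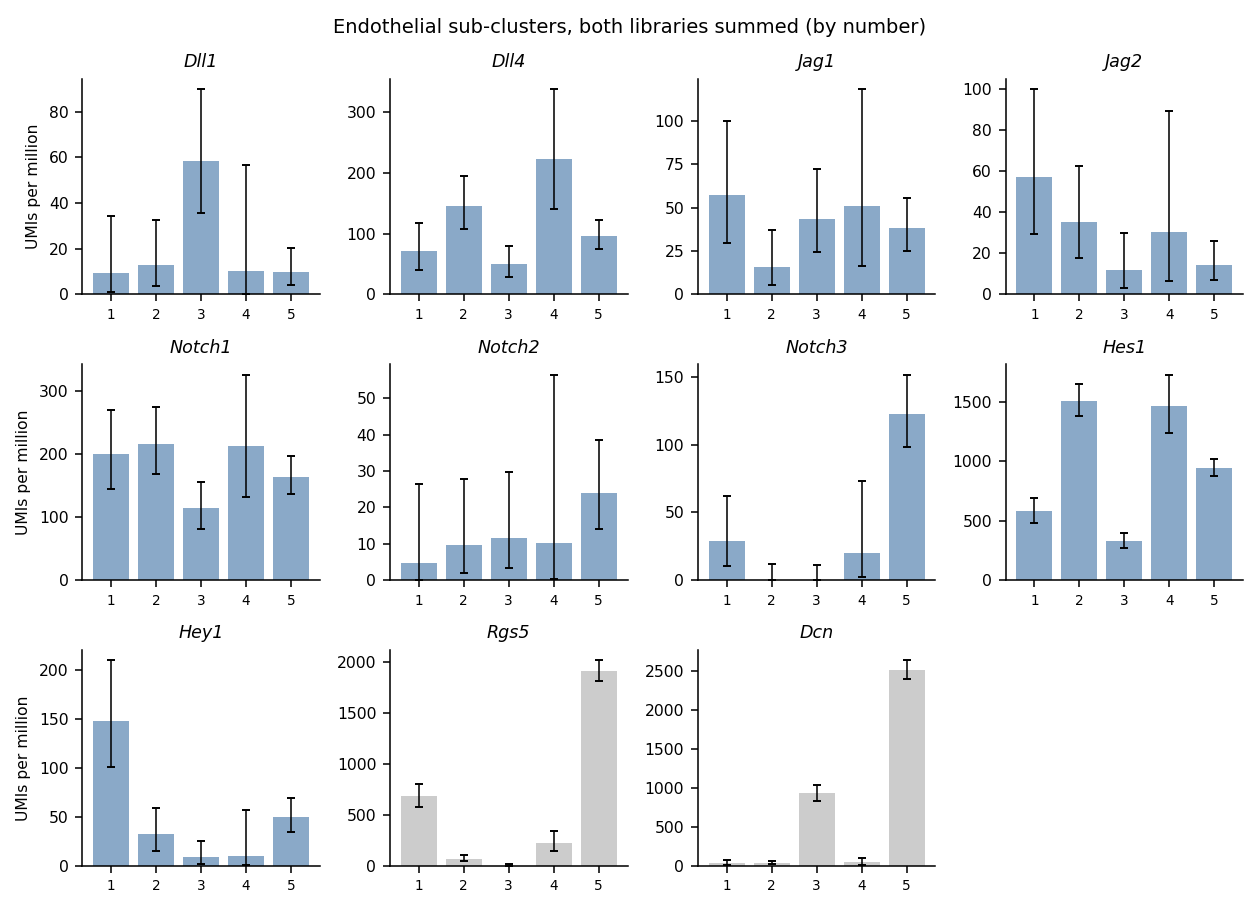
Levels (y axis, CPM) of 9 Notch genes (blue) and of the mural gene Rgs5 and the fibroblast gene Dcn (grey) in the 5 endothelial sub-clusters (x axis, by number), both libraries summed, with exact Poisson 95% intervals. Notch3 is at 123 CPM in sub-cluster 5, which also has Rgs5 at 1909 and Dcn at 2521 CPM, and at 0 in sub-clusters 2 and 3.

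Taken as the mean of their classes, vessels differed from the ciliary epithelium in 5 of the 10 genes. Taking the mean of endothelium and mural cells against the mean of both layers, Notch3 (2.55 ± 0.26, adjusted p = 7.87e-09), Notch1 (2.21 ± 0.34, adjusted p = 4.21e-06), Hey1 (2.16 ± 0.43, adjusted p = 0.000255) and Jag1 (2.07 ± 0.39, adjusted p = 0.000101) were called higher in vessels and Notch2 (-1.72 ± 0.31, adjusted p = 4.89e-05) lower. Of 6905 tested genes, 20.3% were called, and the median was -0.21 over these, 1.83 over the 10 genes and 2.12 over the 6 with UMIs in all 4 classes. For Notch1 each of the 4 vessel values, 99.6 to 204 CPM, lay above each of the 4 epithelial values, 23.8 to 29.2 CPM. Notch3 lost the call without endothelial sub-cluster 5 (1.22, adjusted p = 0.0544). Jag1 was at 193 and 132 CPM in mural cells but at 35.7 and 44.4 in endothelium, near the pigmented value of 34.5 in library 2. Mural Notch2 was at 106 CPM in library 1, above both non-pigmented values of 85.8 and 50.4 CPM, and at 13.2 CPM in library 2. Hes1 did not separate vessels from epithelium (0.00 ± 0.33).

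The other genes of the pathway were read from a list of 47, of which 44 were tested. Between the layers 1 of 44 was called, against 6.57% of all tested genes: Adam10, the protease that makes the ligand-dependent cut in Notch, stood at 43.4 and 50.4 CPM in the non-pigmented layer and 178 and 118 CPM in the pigmented layer (-1.62 ± 0.29, adjusted p = 0.000247). The median over the 44 was -0.06. In the vessel wall 3 of 44 were called higher in endothelium and 3 lower, against 5.73% of all tested genes in either direction, with a median of 0.17. Those higher were Mfng, a glycosyltransferase that modifies Notch (119 and 35 UMIs against 0 and 1, ratio 21.8, 3.85 to 865), Numb, an adaptor that antagonises Notch (82 and 22 UMIs against 2 and 1, ratio 4.90, 1.63 to 24.1), and Adam10 (1.83 ± 0.47; 0.97 in library 2 alone). Those lower were the ubiquitin ligase genes Dtx4 (-3.35 ± 0.85) and Dtx3 (-1.82 ± 0.38) and the Hey family member Heyl (-2.23 ± 0.54), which was at 131 and 132 CPM in mural cells against 28.9 and 18.1 CPM in endothelium. DESeq2 called 0 of the 44 higher and 3 lower.

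Against the epithelium, vessels had 5 of the 44 called higher and 6 lower, near the 20.3% of all tested genes called in either direction, with a median of -0.17. Those higher were Neurl1b (6.14 ± 0.97), Mfng (5.16 ± 1.87), the Notch feedback inhibitor Nrarp (4.59 ± 0.67), the endothelial receptor Notch4 (2.65 ± 0.98) and Heyl (2.38 ± 0.42). The values of Neurl1b and Mfng depend on epithelial classes with 0 UMIs and are no bound. Notch4 rested on library 1, with a difference of 3.03 in library 1 alone and 0.45 in library 2 alone. Nrarp stood at 89.2 and 76.6 CPM in endothelium and 18.7 and 105.7 CPM in mural cells, and at no more than 4.03 CPM in either epithelial layer. Among those lower were Dtx1 (-2.34 ± 0.67), Aph1c (-2.09 ± 0.58), Dtx4 (-1.60 ± 0.44), Mib2 (-1.49 ± 0.44; -0.84 in library 2 alone) and Psen2 (-1.31 ± 0.38), of which Psen2 and Aph1c encode parts of gamma-secretase and Mib2 a ligase that acts on ligands.

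Fold changes of the called genes kept their direction under the alternatives, apart from Notch2 in the vessel wall. In the plot of fold changes under the alternatives, Dll1 between the layers ran from 5.29 to 6.84 over the settings with a test, Notch3 between endothelium and mural cells from -5.41 to -1.75 and Jag1 from -2.22 to -1.31.

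**Figure D5:**
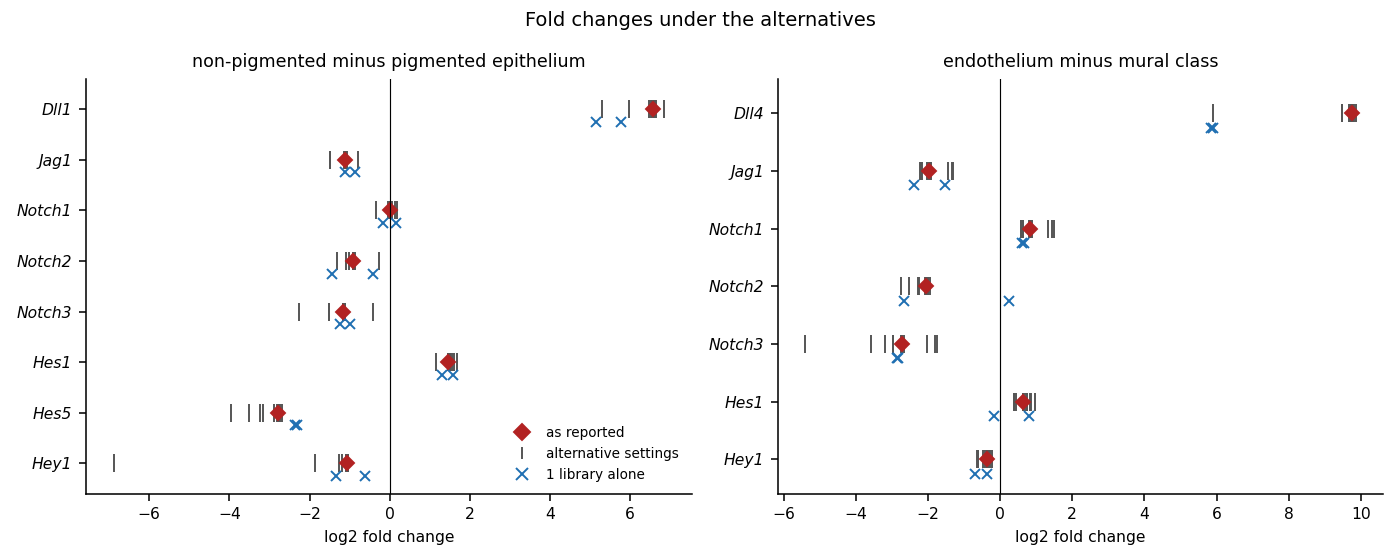
Log2 fold change (x axis) of Notch genes between the ciliary layers (left) and in the vessel wall (right). Red diamonds are the values reported and grey marks the alternative settings with a test. Blue crosses are the difference in 1 library alone, computed with a prior count of 2. Genes with at most 3 UMIs in a class over both libraries are left out, except Dll1 on the left and Dll4 on the right. Notch2 in the vessel wall reaches 0.26 when only library 2 is used and -2.66 when only library 1 is.

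Ligands and receptors were also read in the same cells, as a description that depth shapes. In the endothelium, 44 of the 58 cells with a Dll4 UMI in library 1 and 21 of 28 in library 2 also had a Notch1 UMI. Among all endothelial cells, 85 of 145 and 49 of 96 had a Notch1 UMI. In the mural class, 14 of 20 and 8 of 9 cells with a Jag1 UMI also had a Notch3 UMI. Of all mural cells 28 of 35 and 16 of 23 had a Notch3 UMI, so in library 1 cells with Jag1 had it no more often. In the non-pigmented epithelium 25 of 60 and 16 of 42 cells with Dll1 also had Notch2, and 56 of 60 and 39 of 42 had Hes1. Over all non-pigmented cells, 41 of 144 and 28 of 146 had Notch2, and 106 of 144 and 120 of 146 had Hes1. The Aqp4-Slc1a3 class held 6 cells in library 1 and 13 in library 2 with both Notch1 and Hes5, out of 10 and 25 with Hes5. Notch1 was found in 50 of 114 and 84 of 246 cells of that class.

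In the Aqp4-Slc1a3 class, a single sub-cluster from library 2 had high Hes1 and Hes5 levels. Sub-cluster 7, led by immediate early and stress genes such as Maff, Socs3 and Nr4a3, held 1 cell of library 1 and 78 of library 2. It carried 793 of the 1949 Hes1 UMIs (3583 CPM) and 38 of the 89 Hes5 UMIs (172 CPM) with 21.4% of the UMIs of the class. Without it, Hes1 in the class stood at 1222 CPM in library 1 and 1565 CPM in library 2. Notch1 in that sub-cluster was at 181 CPM, near the level of the whole class.

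The genes most like each Notch gene were found by Pearson correlation of log2 CPM over the 21 classes, among 5674 genes with at least 100 UMIs in each library. These classes share libraries and depth, so the values are descriptions. Dll1 was most like Defb11 (0.76), Shisa2 (0.73) and Ccdc148 (0.67), all highest in the non-pigmented epithelium. Notch3 was most like Ednra (0.86), the endothelin receptor of vascular muscle, Dock6 (0.85) and Pear1 (0.85). Hey1 was most like Gm13889 (0.90), Pcdh18 (0.90) and Grb10 (0.89), and Hes1 like Fkbp10 (0.90), Naprt1 (0.88) and Cyr61 (0.87). Jag1 was most like Ybx3 (0.81), Egflam (0.77) and Dmd (0.75), highest in rods or cones, Notch1 like Mafk (0.81), Smox (0.81) and Snx18 (0.79), and Notch2 like Gm2a (0.74), Tns3 (0.72) and Ctsc (0.71). Dll4, Jag2 and Hes5 had under 100 UMIs in at least 1 library and were not compared.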

How the data were processed

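The authors deposited raw UMI counts per gene and barcode as 1 matrix per library, with a header naming software version 3.1.0; the submitters' processing notes name CASAVA 1.8, Cell Ranger and Seurat and the build mm10 or GRCm38. The annotation release and strand setting are not given in the sources used here. Barcodes with under 500 genes or over 30% mitochondrial UMIs were left out. A random 16845 genes, all markers among them, were used to cluster (scanpy 1.11.5, Leiden resolution 1, 2000 variable genes, 30 components, 15 neighbours), and the other 16611, all Notch genes among them, were kept for testing. A cluster took a name with at least 3 markers at a mean of 0.5 per 10000 UMIs and 4 times the median of the other clusters; this scoring rule was written and revised after the clusters were seen, while the markers were fixed earlier.

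Counts were summed per class and library, and 42 sums of 21 classes were fitted in edgeR 4.0.16 (R 4.3.3; TMM, filterByExpr, class and library as terms), which tested 6905 genes; p-values were adjusted over all of these. The method was tested on simulated counts. Library numbers come from the labels and pair all classes of 1 pool, so library is a block in the fit. No doublet caller was used; cells of high UMI count were left out as alternatives. Other alternatives were DESeq2 1.42.0, RLE scaling, no count filter, no library block, other clusterings, a mitochondrial limit of 15%, each library alone and 3 class definitions. The members and gene lists were chosen with earlier results of these data known. Named are all 10 members, at most 6 called pathway genes per direction and the 3 most correlated genes per member; sub-clusters and their leading genes were chosen after their values were seen. Retinal ganglion cells (15 and 49 cells) were left out of the fit. Some values of genes outside the members are not reported here.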

Additional observations from a re-analysis of the deposited data

How the results depend on the processing

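With n = 2 pools and 35 and 23 mural cells, depth limited the vessel wall, where 3 UMIs correspond to 18.7 and 39.6 CPM. Of the summary counts, 74 alternative values stayed within 1.5 times the value reported and 6 moved beyond it. Between the ciliary layers, where 2 Notch genes were called, 1 was called without the library block (the pairing of classes by pool), 5 without cells above the 95th percentile of UMIs, 4 without the smooth muscle sub-clusters of the pigmented class, and 5 without cells above 3 times the median UMIs, the last chosen after seeing the data. These counts stand without the share of all tested genes called under the same settings. Pathway genes called between the layers went from 1 (Adam10) to 2 (Adam10 and Heyl) without the smooth muscle sub-clusters, and those called in the vessel wall went from 6 to 3 with DESeq2. Directions reversed for differences near 0, for 1 gene that was called and for Hes1 in the vessel wall. That Hes1 difference, reported at 0.64 and not called, was 0.80 in library 1 alone and -0.18 in library 2 alone. Notch1 between the layers became -0.055 without cells above the 95th percentile and -0.35 without cells above 3 times the median. Notch2 in the vessel wall ranged from -2.66 in library 1 alone to 0.26 in library 2 alone. Hes1 between vessels and epithelium became -0.025 with a mitochondrial limit of 15%, -0.036 at clustering resolution 2, -0.093 with another random split of genes, -0.12 without the library block and -0.087 without the smooth muscle sub-clusters. The cause of these changes was not tested. At clustering resolution 0.5 no mural class was found, so that setting gave no vessel value.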
